A study of Homo sapiens with 38 samples.

Results

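Granins are the acidic cargo proteins of dense-core secretory granules, from which neurons and neuroendocrine cells release peptides on demand. The genes described here are 10, chosen by name: the granins CHGA, CHGB, SCG2, SCG3 and VGF, the convertases PCSK1 and PCSK2, their binding proteins PCSK1N and SCG5, and the trimming enzyme CPE. Values were found for 9 of them, among 15378 genes of a knockout and inhibitor experiment and 14820 genes of a separate heterozygote experiment, and PCSK1 was not analysed here. All 9 passed the filter on low values. PCSK2 did so through the neural wild-type and p53-knockout groups, where it is high, so it is described by its reads and left out of the counts below.

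Polyadenylated RNA came from SH-SY5Y, a human neuroblastoma line that extends neurites in retinoic acid. In the first experiment 10 groups of 3 libraries covered wild-type (WT), p53-KO, p53_USP7_DKO and p53_BCOR_DKO cells, each undifferentiated or neural, and WT neural cells with the vehicle DMSO or with FT671, an inhibitor of the deubiquitinase USP7. The second held 4 groups of 2 libraries, WT and USP7-heterozygous cells in both states. Neural cells had been kept for 10 days with 10 µM retinoic acid. Both double knockouts also lack p53, so each was compared with the p53 knockout. The labels give neither the number of clones behind a genotype, nor the nature of the heterozygous change, nor a dose or duration for FT671. They do not say whether libraries of a group came from separate cultures, so p-values measure only the spread between these libraries, which may be technical. With the number of clones unknown, a genotype and a difference between clones cannot be told apart. Words such as raised or lowered describe the comparison only.

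As background, granins aggregate in the acidic, calcium-rich lumen of the late Golgi and enter granules with other cargo. The convertases PCSK1 and PCSK2 cleave precursors after pairs of basic residues, and carboxypeptidase E, made from CPE, removes the basic residues left at the new ends. PCSK1N encodes proSAAS, an inhibitor of PCSK1, and SCG5 encodes a chaperone that PCSK2 needs to mature. USP7 and BCOR are subunits of a noncanonical Polycomb repressive complex.

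Libraries held 16149022 to 17946790 reads. Throughout, log2 changes are given ± SE and come with p-values from limma. Values are normalized counts, the reads divided by a size factor per library, unless said otherwise. The USP7 transcript stood at 3024 ± 47.3 in p53-KO and 495.4 ± 103.7 in p53_USP7_DKO undifferentiated cells, and BCOR at 3605 ± 320.5 against 1029.8 ± 31.6 in p53_BCOR_DKO undifferentiated cells (SD, n = 3). The third p53-KO undifferentiated library carried skeletal muscle transcripts. It summed to 15279 over 8 of 10 muscle markers, against at most 31.8 in any other library of that experiment. The third p53_USP7_DKO undifferentiated library stood apart from its partners for several genes. It read 2407 for SCG5 against 1113 and 1095, 473 for SCG3 against 316 and 305, and 2609 for CPE against 2073 and 2093. It was lower for VGF (6426 against 9879 and 8809), USP7 (379 against 531 and 577) and BCOR (1848 against 2716 and 2475). Calls that change without either library are given below. In bulk RNA, fewer cells that carry a transcript and less of it per cell cannot be told apart.

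Marker genes of neuroblastoma cell states moved with the genotypes. The 10 noradrenergic neuroblast markers summed to 95935 to 104316 in p53-KO neural libraries, 23308 to 25983 in p53_USP7_DKO and 34615 to 39353 in p53_BCOR_DKO neural libraries, and to 76373 to 79679.6, 33993 to 49092 and 48923 to 51050.3 in the undifferentiated ones. TH, which makes the precursor of dopamine and noradrenaline, had no read in undifferentiated cells of either double knockout nor in p53_BCOR_DKO neural cells. The 10 mesenchymal markers summed to 10456 to 10636, 63733 to 66742 and 48498 to 49863 in the same neural groups. The 8 fibroblast markers summed to 11942 to 12315, 31997 to 33318 and 136224 to 139876, and 4 measured Schwann cell markers to at most 325.4 in any library of the experiment. Against p53-KO neural cells, 6 fibroblast markers rose and 1 fell with USP7 loss, and 5 rose and 3 fell with BCOR loss. Of mesenchymal markers 9 and 10 of 10 rose. Of noradrenergic markers 8 and 9 of 10 fell and 1 rose in each. In these comparisons 63.7% and 62.3% of all genes tested were called. The part of these markers in the granin results was not tested.

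The 9 genes differed widely in how far they ranged. Over the 10 groups of the first experiment the group means of CHGA spanned 1763-fold, of CHGB 350.7-fold, of SCG3 28.8-fold and of SCG2 12.003-fold. SCG5 spanned 6.82-fold, VGF 4.27-fold, PCSK1N 4.1-fold and CPE 3.89-fold. Per kilobase of exon, on the union of exons in GENCODE v29, VGF was the most abundant of the 9 in WT undifferentiated cells with 4899 normalized counts per kilobase, ahead of CHGA with 640.5 and CPE with 573.4. In WT neural cells CHGA led with 6724 normalized counts per kilobase, ahead of VGF with 3159 and CHGB with 2169, while PCSK2 had 4.25.

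**Figure D1:**
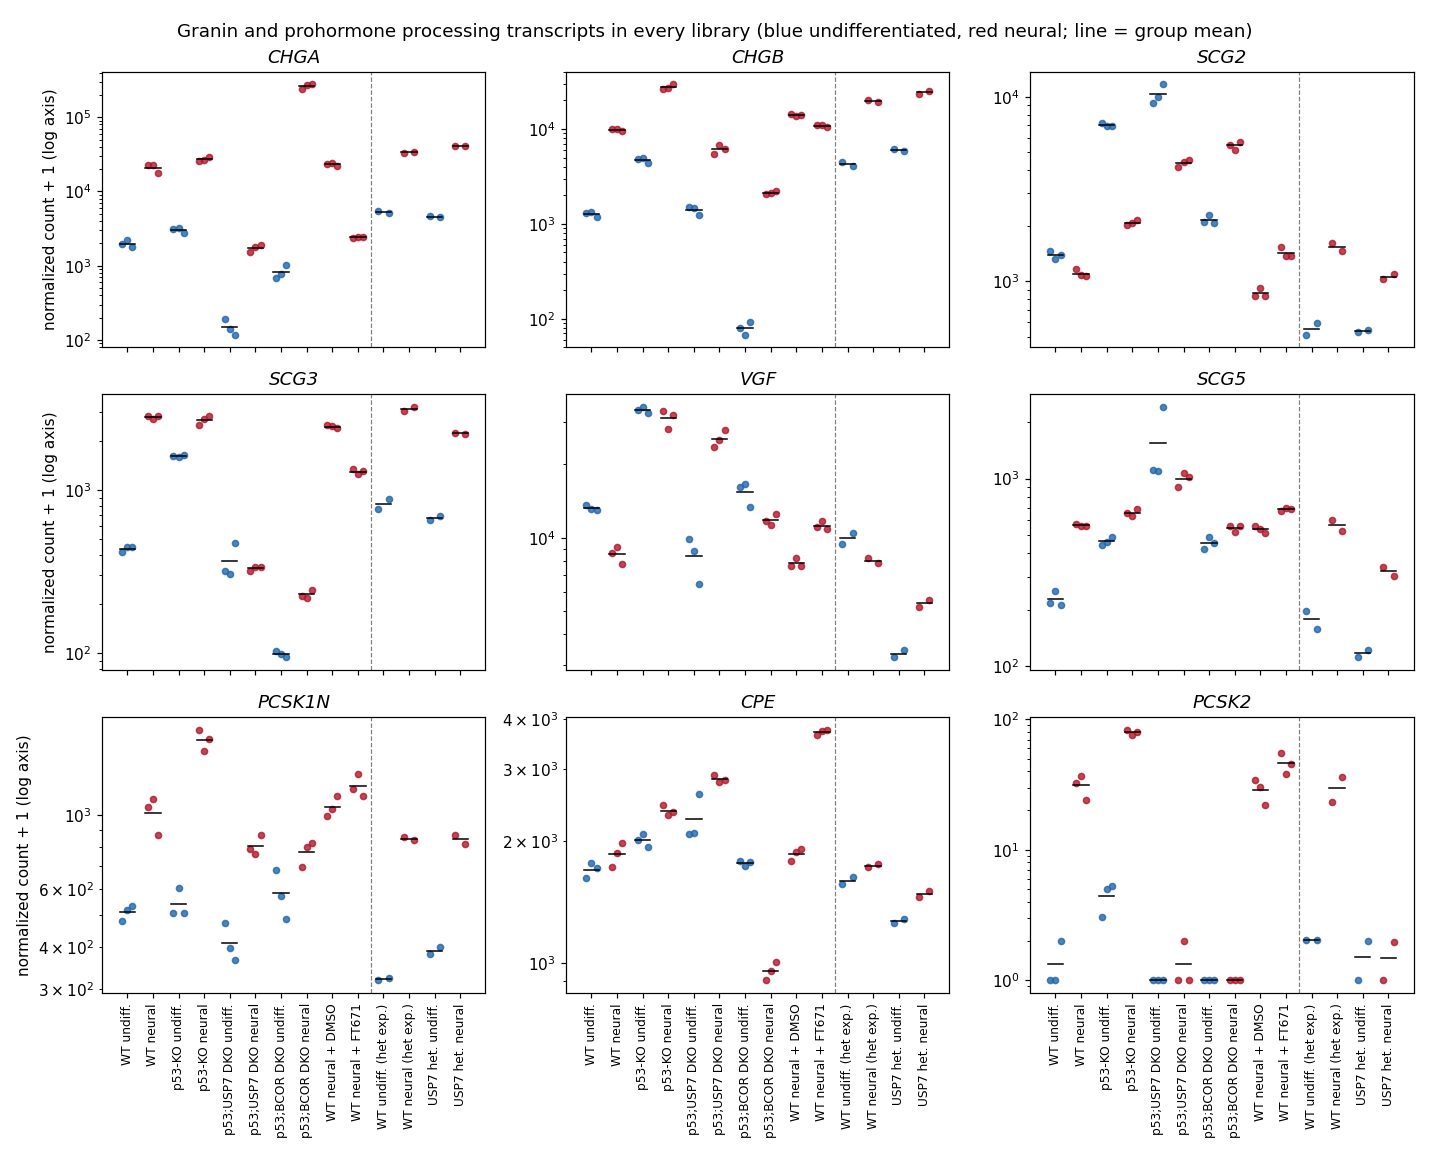
Normalized count plus 1 (log axis) of each of the 9 measured genes in every library, by group, with undifferentiated and neural groups in different colours and lines at group means. Group means of CHGA run from 148.9 in p53_USP7_DKO undifferentiated to 262579 in p53_BCOR_DKO neural cells, and PCSK2 is at or near 0 in the double knockouts.

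The CHGA and VGF promoters are shown because both carry a cyclic AMP response element although their transcripts moved in opposite directions in WT differentiation, and that of SCG3 because it holds both parts of RE1, the element bound by the repressor REST. They are RefSeq sequences on GRCh38.p14, 250 bases before to 50 bases after the start, 5′ to 3′ on the gene's strand. Of the 9 genes 7 have an entry, and SCG2 and CHGB do not. Capitals mark TGACGTCA (the cyclic AMP response element), TTCAGCACC (the left part of RE1) and GGACAGCGC (its right part), each searched on both strands.
CHGA, chr14:92922900-92923199, plus strand: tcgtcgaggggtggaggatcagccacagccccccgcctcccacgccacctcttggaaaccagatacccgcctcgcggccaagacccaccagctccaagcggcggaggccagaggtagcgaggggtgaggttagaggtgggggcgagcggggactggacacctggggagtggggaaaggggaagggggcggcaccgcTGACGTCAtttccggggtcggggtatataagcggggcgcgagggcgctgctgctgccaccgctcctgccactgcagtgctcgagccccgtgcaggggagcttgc
VGF, chr7:101165520-101165819, minus strand: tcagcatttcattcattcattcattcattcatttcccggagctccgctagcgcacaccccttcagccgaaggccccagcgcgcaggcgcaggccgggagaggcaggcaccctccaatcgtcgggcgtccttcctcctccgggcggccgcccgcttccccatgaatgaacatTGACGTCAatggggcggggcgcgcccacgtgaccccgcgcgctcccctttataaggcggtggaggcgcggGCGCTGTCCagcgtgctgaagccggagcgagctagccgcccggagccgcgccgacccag
SCG3, chr15:51681253-51681552, plus strand: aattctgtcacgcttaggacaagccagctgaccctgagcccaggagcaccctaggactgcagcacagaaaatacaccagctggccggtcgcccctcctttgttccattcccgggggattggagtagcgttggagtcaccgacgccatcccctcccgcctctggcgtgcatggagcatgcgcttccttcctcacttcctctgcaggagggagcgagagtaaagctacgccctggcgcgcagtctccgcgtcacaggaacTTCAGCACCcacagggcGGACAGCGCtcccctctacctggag
TGACGTCA begins 54 bases before the start of CHGA and 79 bases before that of VGF, and 1.85% of the 35116 promoters in the table hold it. No other of these genes with an entry does. The shorter TGACG, contained in it, is in 6 of the 7 genes and in 24.6% of all promoters. SCG3 holds TTCAGCACC from base 9 and GGACAGCGC from base 26 after its start, which 0.376% and 0.581% of all promoters hold, and 6 promoters in all hold both on 1 strand. VGF holds the right part on the other strand. A match describes letters and is not a shown binding site.

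Differentiation of WT cells raised the chromogranins, SCG3, SCG5 and PCSK1N, and lowered VGF and SCG2. Of the 8 genes other than PCSK2, 5 rose, 2 fell and 1 did not pass the test, where 65.7% of all genes tested were called (32.4% up, 33.4% down), and their median log2 change was 1.15, against -0.01 over all genes. CHGA read 1975, 2196 and 1790 in undifferentiated and 22429, 22601 and 17547 in neural libraries (log2 3.39 ± 0.14, adjusted p = 2.6e-16). CHGB, which also promotes granule formation, read 1315, 1341 and 1181 and then 9992, 9984 and 9537 (log2 2.94 ± 0.09, adjusted p = 3.7e-21). For both genes every neural library was far above every undifferentiated one. SCG3, which binds CHGA and cholesterol-rich membrane, read 415, 447 and 449 and then 2831, 2727 and 2866 (log2 2.68 ± 0.10, adjusted p = 2.1e-19). SCG2, the precursor of secretoneurin, read 1449, 1325 and 1381 and then 1157, 1078 and 1060 (log2 -0.33 ± 0.07, adjusted p = 1.4e-04). VGF, a granin induced by neurotrophins, read 13668, 13086 and 12984 and then 8643, 9191 and 7792 (log2 -0.64 ± 0.10, adjusted p = 5.7e-06). The falls of SCG2 and VGF were small beside the rises, and the groups did not overlap for any of these 5 granins. How many of all genes lack such overlap was not counted, so here and below it only describes the libraries.

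Among the processing genes, PCSK2 had 1 read in the 3 WT undifferentiated libraries together and 94 in the 3 neural ones, at 31.7, 35.6 and 22.969, a ratio of 89.8 (exact 95% interval 15.7 to 3583.9). This and the other intervals cover counting error only, and are no test, since PCSK2 passed the filter through groups where it is high. SCG5 read 216, 250 and 210 and then 573, 558 and 558 (log2 1.32 ± 0.17, adjusted p = 2.0e-07), and PCSK1N 480, 517 and 532 and then 1056, 1114 and 867 (log2 0.98 ± 0.11, adjusted p = 1.2e-08). The neural libraries were higher without overlap for all 3 genes. CPE read 1617, 1758 and 1714 and then 1717, 1868 and 1971, groups that overlapped (log2 0.13 ± 0.07, adjusted p = 0.101); it was called in a fit of these groups alone (adjusted p = 0.0457) and without the first neural library (adjusted p = 0.0355). Mesenchymal marker sums were 51529 to 54719 in WT undifferentiated and 10606 to 11084 in WT neural libraries, with 9 of 10 markers down. Noradrenergic sums were 67105 to 70707 and 75402 to 79812, but 5 markers rose, 4 fell and 1 was not called. Fibroblast sums were 24811 to 25470 and 27034 to 34938, where 1 marker rose and 7 fell. Over all genes tested 65.7% were called. The part of these markers in the result was not tested.

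In p53-KO cells differentiation again raised CHGA and CHGB, while SCG2 fell by more than in WT. Of the 8 genes other than PCSK2, 6 rose, 1 fell and 1 did not pass the test, where 69.0% of all genes tested were called (35.6% up, 33.5% down), and their median log2 change was 0.62, against 0.01 over all genes. CHGA went from 3122, 3225 and 2754 to 25769, 26617 and 28925 and CHGB from 4811, 4965 and 4400 to 26319, 27293 and 29523, both without overlap. SCG2 went from 7253, 6935 and 6956 to 2012, 2071 and 2159 (log2 -1.76 ± 0.07, adjusted p = 2.7e-18), and SCG3 from 1623, 1588 and 1647 to 2515, 2723 and 2857 (log2 0.73 ± 0.10, adjusted p = 1.5e-07). VGF read 33663, 34485 and 32467 and then 33079, 27878 and 31927, overlapping groups (log2 -0.12 ± 0.10, adjusted p = 0.315). The test of the difference from the WT response, an interaction, called 2 of the 8 genes up and 4 down, where 18.1% of all genes tested were called (10.2% up, 7.87% down). It was largest for SCG3 (log2 -1.95 ± 0.14, adjusted p = 2.8e-11) and SCG2 (log2 -1.43 ± 0.10, adjusted p = 2.2e-11). For CHGB it was log2 -0.39 ± 0.12, adjusted p = 0.0272, and it was lost without any one of 7 libraries (adjusted p = 0.0548 to 0.0832): the third WT undifferentiated, the first or second WT neural, the first or second p53-KO undifferentiated, and the first or second p53-KO neural library.

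In p53_USP7_DKO cells CHGA rose with differentiation from a very low level and stayed low. It went from 192, 139 and 116 to 1535, 1786 and 1888 (log2 3.56 ± 0.14, adjusted p = 1.5e-16), and its neural libraries lay below every undifferentiated p53-KO library. Of the 8 genes other than PCSK2, 5 rose, 2 fell and 1 did not pass the test, where 65.5% of all genes tested were called (33.9% up, 31.6% down), and their median log2 change was 0.66, against 0.01 over all genes. CHGB went from 1488, 1460 and 1227 to 5431, 6719 and 6142, VGF from 9879, 8809 and 6426 to 23626, 25250 and 27650 (log2 1.63 ± 0.10, adjusted p = 1.6e-13), and SCG2 from 9282, 9952 and 11685 to 4166, 4445 and 4522 (log2 -1.23 ± 0.07, adjusted p = 9.6e-15). None of these overlapped. SCG3 read 316, 305 and 473 and then 319, 336 and 335, overlapping groups (log2 -0.12 ± 0.10, adjusted p = 0.29; called without the second undifferentiated library, adjusted p = 0.0405). SCG5 went from 1113, 1095 and 2407 to 897, 1073 and 1024 (log2 -0.52 ± 0.17, adjusted p = 0.00893), and without the third undifferentiated library the log2 change was -0.15 ± 0.08, adjusted p = 0.09. PCSK2 had no read in the 3 undifferentiated libraries and 1 in the 3 neural ones.

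The interaction of USP7 loss with differentiation was called up for 2 and down for 4 of the 8 genes, where 42.1% of all genes tested were called (20.9% up, 21.2% down). It was largest for VGF (log2 1.75 ± 0.15, adjusted p = 1.5e-10), which fell in WT and was not called in p53-KO cells. For SCG5 it was log2 -1.02 ± 0.24, adjusted p = 0.00118, and log2 -0.65 ± 0.10, adjusted p = 2.5e-06 without the third p53_USP7_DKO undifferentiated library. For CHGA it was log2 0.40 ± 0.20, adjusted p = 0.122, and it was called without the first p53_USP7_DKO undifferentiated library (adjusted p = 0.00946). For CPE it was log2 0.10 ± 0.09, adjusted p = 0.444, and without the third p53_USP7_DKO undifferentiated library it was called (log2 0.20 ± 0.07, adjusted p = 0.0172).

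In p53_BCOR_DKO cells differentiation took CHGA from 673, 777 and 1014 to 237790, 273233 and 276715 normalized counts (log2 8.34 ± 0.14, adjusted p = 3.5e-24). In p53-KO cells the log2 change was 3.16 ± 0.14, and the interaction was log2 5.18 ± 0.20, adjusted p = 1.8e-16. Of the 8 genes other than PCSK2, 5 rose, 2 fell and 1 did not pass the test, where 57.1% of all genes tested were called (27.0% up, 30.1% down), and their median log2 change was 0.82, against 0.00 over all genes. CHGB went from 78.4, 66.7 and 92.002 to 2066, 2097 and 2201 (log2 4.74 ± 0.09, adjusted p = 1.3e-25), which left it below the undifferentiated p53-KO libraries. SCG2 went from 2100, 2271 and 2061 to 5476, 5152 and 5724 (log2 1.35 ± 0.07, adjusted p = 9.5e-16), a rise where the other 3 genotypes of the experiment showed a fall, with an interaction of log2 3.11 ± 0.10, adjusted p = 6.8e-20. SCG3 went from 101, 97.9 and 93.048 to 224, 218 and 243. SCG5 did not overlap between the states and was not called (log2 0.27 ± 0.17, adjusted p = 0.171), but was called in a fit of these groups alone (adjusted p = 8.9e-04). CPE went from 1784, 1734 and 1767 to 906, 953 and 1002 (log2 -0.89 ± 0.07, adjusted p = 3.7e-12). PCSK2 had no read in any of the 6 libraries. The interaction of BCOR loss was called up for 4 and down for 2 of the 8 genes, where 63.8% of all genes tested were called (29.3% up, 34.4% down).

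**Figure D2:**
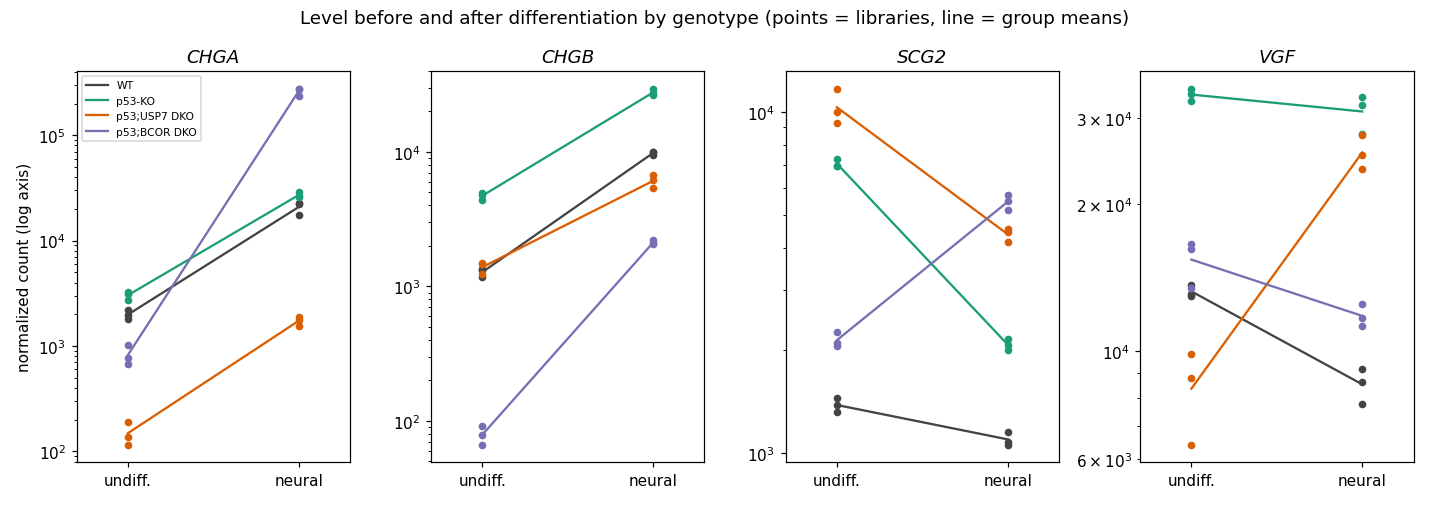
Normalized counts (log axis) of CHGA, CHGB, SCG2 and VGF by genotype in undifferentiated and neural cells, with points for libraries and lines joining group means. CHGA rises in every genotype, to 262579 in p53_BCOR_DKO and to 1736 in p53_USP7_DKO neural cells.

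Loss of p53 raised most of the granins against WT in both states, VGF and CHGB among them. In undifferentiated cells, of the 8 genes, 7 rose, none fell and 1 did not pass the test, where 22.2% of all genes tested were called (12.2% up, 10.1% down), and their median log2 change was 1.19, against 0.00 over all genes. SCG2 rose from 1385 ± 61.993 to 7048 ± 177.9 (SD, n = 3; log2 2.35 ± 0.07, adjusted p = 3.0e-19), SCG3 by log2 1.89 ± 0.10, CHGB by log2 1.88 ± 0.09, VGF by log2 1.34 ± 0.10 and SCG5 by log2 1.04 ± 0.17. CHGA rose by less (log2 0.61 ± 0.14, adjusted p = 0.00289). The call of CPE (log2 0.24 ± 0.07, adjusted p = 0.00955) was lost without the first WT undifferentiated library (adjusted p = 0.059). PCSK2 had 10 reads in the 3 p53-KO libraries and 1 in the 3 WT ones, a ratio of 10.2 (exact 95% interval 1.45 to 443.3). In neural cells, of the 8 genes, 6 rose, none fell and 2 did not pass the test, where 29.8% of all genes tested were called (17.8% up, 12.0% down), and their median log2 change was 0.56, against 0.01 over all genes. VGF rose from 8542 ± 704.7 to 30961 ± 2732 (SD, n = 3; log2 1.86 ± 0.10, adjusted p = 1.2e-13) and CHGB by log2 1.49 ± 0.09. SCG3 overlapped between the groups (log2 -0.06 ± 0.10, adjusted p = 0.705). SCG5 did not overlap and was not called (log2 0.22 ± 0.17, adjusted p = 0.368), but was called in a fit of these groups alone (adjusted p = 0.00619). PCSK2 stood at 82.6, 74.9 and 79.007, above every WT neural library. The call of CHGA (log2 0.39 ± 0.14, adjusted p = 0.0461) was lost with a replicate block (adjusted p = 0.0548), and without the third WT neural library or any one of the p53-KO neural libraries (adjusted p = 0.0664 to 0.234).

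USP7 loss on the p53 knockout lowered CHGA, CHGB, SCG3, VGF and PCSK1N and raised SCG2, SCG5 and CPE, in both states. The calls of VGF in neural cells and of PCSK1N and CPE in undifferentiated cells depended on the fit or on single libraries, as given below. In undifferentiated cells, of the 8 genes, 3 rose, 5 fell and none missed the test, where 57.3% of all genes tested were called (28.9% up, 28.4% down), and their median log2 change was -1.08, against 0.02 over all genes. In neural cells, of the 8 genes, 3 rose, 5 fell and none missed the test, where 63.7% of all genes tested were called (30.7% up, 33.0% down), and their median log2 change was -0.67, against -0.01 over all genes. CHGA fell from 3034 ± 247.4 to 148.9 ± 39.043 in undifferentiated cells (SD, n = 3; log2 -4.37 ± 0.14, adjusted p = 4.5e-18) and from 27104 ± 1633 to 1736 ± 181.8 in neural cells (SD, n = 3; log2 -3.97 ± 0.14, adjusted p = 9.9e-18). SCG3 changed by log2 -2.18 ± 0.10 and log2 -3.03 ± 0.10 in the same order, and CHGB by log2 -1.77 ± 0.09 and log2 -2.19 ± 0.09. The neural SCG3 values lay below all p53-KO libraries of either state. SCG2 moved the other way, by log2 0.54 ± 0.07 and log2 1.07 ± 0.07. VGF changed by log2 -2.02 ± 0.10 in undifferentiated cells and by log2 -0.28 ± 0.10, adjusted p = 0.0216 in neural cells, where the call was lost without replicate 1 or replicate 3 of p53-KO or replicate 1 or replicate 2 of p53_USP7_DKO (adjusted p = 0.0511 to 0.1).

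Among the processing genes PCSK2 was nearly gone. In neural cells 242 reads in the 3 p53-KO libraries compared with 1 in the 3 p53_USP7_DKO ones, a ratio of 241.6 (exact 95% interval 42.9 to 9579.7). In undifferentiated cells it had 10 reads in the 3 p53-KO libraries and no read in the p53_USP7_DKO ones. The p53-KO mean was 3.44-fold a floor of 3 reads over the p53_USP7_DKO group. That ratio leaves out the counting error of the p53-KO reads, so it is neither a lower bound nor a test. SCG5 instead rose, by log2 1.62 ± 0.17, adjusted p = 1.1e-08 in undifferentiated cells (log2 1.25 ± 0.08, adjusted p = 3.9e-16 without the third p53_USP7_DKO library) and by log2 0.60 ± 0.17, adjusted p = 0.00319 in neural cells. PCSK1N changed by log2 -0.39 ± 0.11 and log2 -1.06 ± 0.11, and the call in undifferentiated cells was lost in a fit of these groups alone (adjusted p = 0.0679), as was that of CPE (adjusted p = 0.327). CPE changed by log2 0.17 ± 0.07, adjusted p = 0.035 in undifferentiated cells, a call lost without the third p53_USP7_DKO library (log2 0.06 ± 0.05, adjusted p = 0.361), without the p53-KO library with muscle transcripts (log2 0.14 ± 0.07, adjusted p = 0.114) and without the first p53-KO library (adjusted p = 0.0675). In neural cells CPE rose by log2 0.26 ± 0.07, adjusted p = 0.00116.

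BCOR loss on the p53 knockout lowered CHGB, SCG3 and VGF in both states, while CHGA and SCG2 fell in undifferentiated and rose in neural cells. In undifferentiated cells, of the 8 genes, none rose, 6 fell and 2 did not pass the test, where 69.4% of all genes tested were called (35.6% up, 33.7% down), and their median log2 change was -1.42, against 0.00 over all genes. CHGB fell from 4725 ± 291.9 to 79.020 ± 12.7 (SD, n = 3; log2 -5.89 ± 0.09, adjusted p = 8.4e-28). SCG3 changed by log2 -4.04 ± 0.10, CHGA by log2 -1.90 ± 0.14, SCG2 by log2 -1.72 ± 0.07 and VGF by log2 -1.13 ± 0.10. PCSK1N and SCG5 overlapped between the groups. The call of CPE (log2 -0.18 ± 0.07, adjusted p = 0.0165) was lost without the second p53-KO library (adjusted p = 0.066). In neural cells, of the 8 genes, 2 rose, 5 fell and 1 did not pass the test, where 62.3% of all genes tested were called (29.4% up, 32.9% down), and their median log2 change was -1.22, against -0.01 over all genes. CHGA rose from 27104 ± 1633 to 262579 ± 21539 (SD, n = 3; log2 3.27 ± 0.14, adjusted p = 3.7e-16) and SCG2 by log2 1.39 ± 0.07. CHGB changed by log2 -3.71 ± 0.09, SCG3 by log2 -3.56 ± 0.10, VGF by log2 -1.39 ± 0.10, CPE by log2 -1.31 ± 0.07 and PCSK1N by log2 -1.12 ± 0.11. SCG5 did not overlap and was not called (log2 -0.27 ± 0.17, adjusted p = 0.176), but was called in a fit of these groups alone (adjusted p = 9.5e-04). PCSK2 had no read in p53_BCOR_DKO cells of either state. Its p53-KO mean was 80.9-fold the same kind of floor in neural and 3.46-fold in undifferentiated cells. These ratios too are neither lower bounds nor tests.

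Set against each other, the double knockouts differed most in CHGB in undifferentiated cells (log2 4.13 ± 0.09, USP7 loss less BCOR loss) and in CHGA in neural cells. In undifferentiated cells 5 of the 8 genes were higher and 3 lower with USP7 loss than with BCOR loss, where 65.2% of all genes tested were called (32.2% up, 33.0% down), and in neural cells 5 were higher and 2 lower, where 60.9% of all genes tested were called (32.3% up, 28.6% down). In neural cells CHGA differed by log2 -7.24 ± 0.14, adjusted p = 2.1e-22, CHGB by log2 1.52 ± 0.09, VGF by log2 1.11 ± 0.10 and CPE by log2 1.57 ± 0.07. The log2 ratio of CHGA to CHGB, with 1 added to each, was -0.03 (range -0.04 to -0.03, n = 3) in p53-KO neural cells, -1.81 ± 0.11 in p53_USP7_DKO and 6.95 ± 0.09 in p53_BCOR_DKO neural cells (SD, n = 3).

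**Figure D3:**
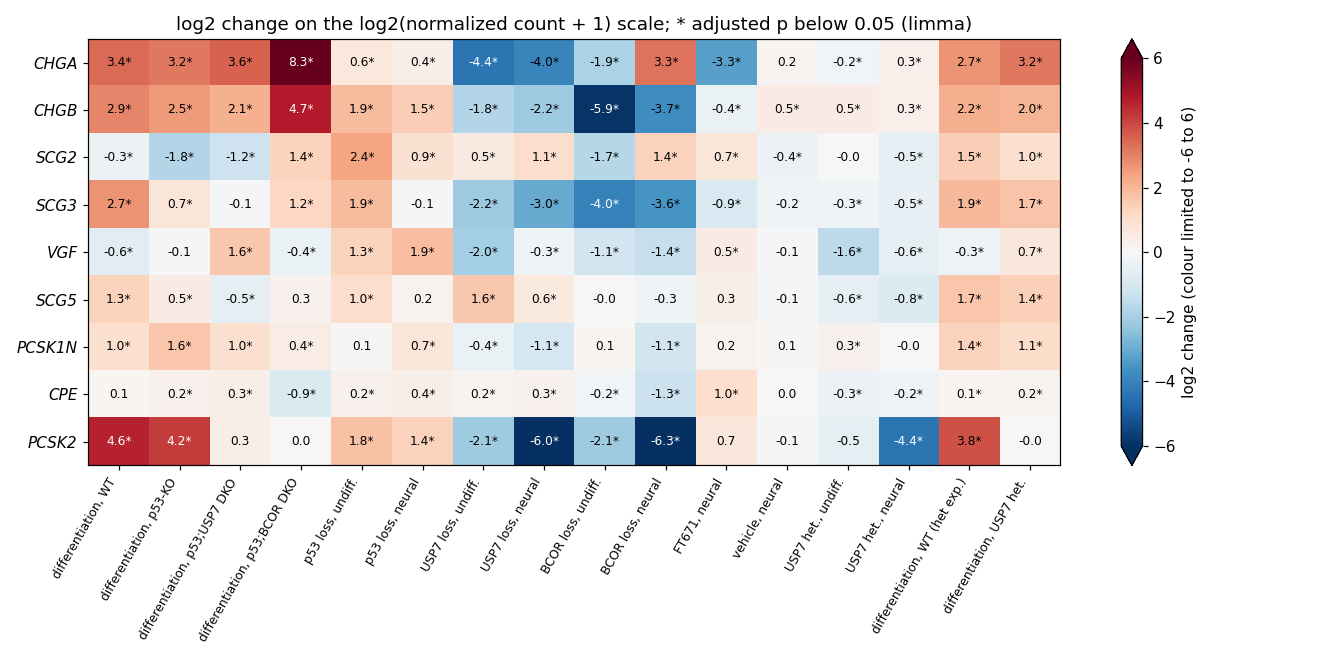
log2 change of each of the 9 genes by comparison, on the log2(normalized count + 1) scale, with a star where limma's adjusted p was below 0.05. CHGA has opposite signs with USP7 loss (-3.97) and BCOR loss (3.27) in neural cells, and values of PCSK2 rest on few reads and depend on the added 1. Stars of PCSK2 are no test, since it passed the filter through groups where it is high.

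FT671 lowered CHGA sharply in WT neural cells and raised CPE. CHGA read 23787, 24077 and 22011 with vehicle and 2362, 2429 and 2421 with FT671 (log2 -3.27 ± 0.14, adjusted p = 5.6e-16). Of the 8 genes, 3 rose, 3 fell and 2 did not pass the test, where 65.1% of all genes tested were called (33.0% up, 32.1% down), and their median log2 change was 0.28, against -0.01 over all genes. SCG3 read 2498, 2460 and 2393 and then 1337, 1260 and 1300 (log2 -0.92 ± 0.10, adjusted p = 2.9e-09), and CHGB 14357, 13596 and 14187 and then 10967, 10923 and 10582 (log2 -0.38 ± 0.09, adjusted p = 5.1e-04). CPE read 1778, 1871 and 1903 and then 3637, 3732 and 3761 (log2 1.00 ± 0.07, adjusted p = 2.2e-13). The groups overlapped for none of these 4 genes. SCG2 rose by log2 0.73 ± 0.07 and VGF by log2 0.51 ± 0.10. PCSK2 stood at 33.007, 29.4 and 21.2 with vehicle and 54.1, 36.8 and 44.4 with FT671, groups that did not overlap. Its difference in limma (log2 0.68 ± 0.34, adjusted p = 0.0779) was not called and is no test, as PCSK2 passed the filter partly through these groups. In a fit of these groups alone SCG5 and PCSK1N were called too, both higher with FT671 (adjusted p = 2.2e-06 and 0.00261).

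Mitochondrial transcripts made up 10.3% to 11.5% of reads in FT671 libraries and 5.3% to 5.9% in vehicle libraries. Noradrenergic marker sums were 37763 to 40836 with FT671 and 74789 to 77328 with vehicle, and mesenchymal sums 28848 to 29416 and 11477 to 12146. Fibroblast sums were 63256 to 65537 and 34217 to 37242, and Schwann cell sums 312.8 to 325.4 and 48.5 to 71.4. Where 65.1% of all genes tested were called, 2 noradrenergic markers rose and 7 fell, and 7 mesenchymal markers rose and 1 fell. Among fibroblast markers 5 rose and 1 fell, and of 4 measured Schwann cell markers 2 rose and none fell. The part of these in the result was not tested. Vehicle itself, against untreated WT neural cells, was called for CHGB (log2 0.51 ± 0.09, adjusted p = 2.6e-04) and SCG2 (log2 -0.36 ± 0.07, adjusted p = 0.00119) among the 8 genes, where 8.70% of all genes tested were called (4.33% up, 4.38% down). The FT671 libraries, lower than vehicle for CHGB, were above the untreated WT neural ones for it (10582 to 10967 against 9537 to 9992). For SCG2 they were above both, at 1376 to 1532 against 1060 to 1157 in untreated libraries.

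USP7-heterozygous cells were compared with WT in the separate experiment, which was fitted by itself. Heterozygous cells had less VGF, SCG3, SCG5 and CPE and more CHGB in both states, and less CHGA in undifferentiated but more in neural cells. The USP7 transcript read 3188 and 3157 in WT and 1878 and 1854 in heterozygous undifferentiated libraries. In undifferentiated cells, of the 8 genes, 2 rose, 5 fell and 1 did not pass the test, where 25.4% of all genes tested were called (11.4% up, 14.1% down), and their median log2 change was -0.23, against -0.01 over all genes. VGF read 3217 and 3449 against 9446 and 10460 in WT (log2 -1.58 ± 0.05, adjusted p = 1.4e-15). CHGB read 6193 and 5832 against 4441 and 4118 in WT (log2 0.49 ± 0.04, adjusted p = 1.2e-08), and CHGA 4670 and 4517 against 5386 and 5055 in WT (log2 -0.18 ± 0.04, adjusted p = 7.3e-04). The heterozygous libraries were thus lower without overlap for VGF and CHGA and higher for CHGB. The call of SCG3 (log2 -0.28 ± 0.06, adjusted p = 0.00106) was lost without the second WT undifferentiated library (adjusted p = 0.0623). In neural cells, of the 8 genes, 2 rose, 5 fell and 1 did not pass the test, where 21.3% of all genes tested were called (9.56% up, 11.7% down), and their median log2 change was -0.37, against 0.00 over all genes. CHGA read 41332 and 41513 against 33300 and 33835 in WT (log2 0.30 ± 0.04, adjusted p = 1.6e-06), and SCG5 337 and 301 against 602 and 523 in WT (log2 -0.82 ± 0.11, adjusted p = 6.7e-06). PCSK2 had 59 reads in the 2 WT neural libraries and 1 in the 2 heterozygous ones, a ratio of 58.6 (exact 95% interval 10.1 to 2354.5). Fibroblast marker sums were 63934 to 64284 in heterozygous and 40816 to 43295 in WT neural libraries, with 4 of 8 markers up, 3 down and 1 not called. Sums of 8 measured mesenchymal markers were 12737 to 12812 and 9465 to 9997 (3 up, 1 down, 4 not called). Sums of 9 measured noradrenergic markers were 41542 to 42834 and 49612 to 50919 (none up, 5 down, 4 not called). Over all genes tested 21.3% were called. The part of these markers in the result was not tested.

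Differentiation in this experiment moved VGF in opposite directions in the genotypes. In WT cells, of the 8 genes, 7 rose, 1 fell and none missed the test, where 79.3% of all genes tested were called (39.7% up, 39.6% down), and their median log2 change was 1.58, against 0.01 over all genes. The call of CPE there (log2 0.13 ± 0.05, adjusted p = 0.0233) was lost without the first undifferentiated or the second neural WT library (adjusted p = 0.163 and 0.0905). In heterozygous cells, of the 8 genes, 8 rose, none fell and none missed the test, where 76.4% of all genes tested were called (38.2% up, 38.2% down), and their median log2 change was 1.28, against 0.01 over all genes. VGF went from 9446 and 10460 to 8212 and 7852 in WT and from 3217 and 3449 to 5191 and 5533 in heterozygous cells, an interaction of log2 0.99 ± 0.07, adjusted p = 1.9e-09. Of the 8 interactions 2 were called up and 2 down, where 16.2% of all genes tested were called (8.76% up, 7.44% down). That of PCSK1N (log2 -0.29 ± 0.10, adjusted p = 0.042) was lost without any one of the 8 libraries (adjusted p = 0.0501 to 0.145). SCG2 went from 511 and 593 to 1612 and 1462 in WT cells (log2 1.48 ± 0.07, adjusted p = 2.7e-15), a rise where WT cells of the first experiment showed a fall. Sums of 9 measured noradrenergic markers were 100125 to 104128 in WT undifferentiated and 49612 to 50919 in WT neural libraries of this experiment. Of these markers 2 rose and 7 fell, and their part in the result was not tested. The experiments were normalized separately and not tested against each other.

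As a share of all normalized counts, the 9 genes together made up 0.118% ± 0.0031 of WT undifferentiated and 0.278% ± 0.021 of WT neural libraries (SD, n = 3). In p53-KO cells the share went from 0.297% ± 0.0088 to 0.557% ± 0.026, and in p53_USP7_DKO cells from 0.14% ± 0.0045 to 0.248% ± 0.011 (SD, n = 3). In p53_BCOR_DKO cells it went from 0.116% ± 0.0091 to 1.49% ± 0.1, of which CHGA alone gave 1.37% ± 0.1 (SD, n = 3). With FT671 it was 0.195% ± 0.003 against 0.311% ± 0.0031 with vehicle (SD, n = 3).

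**Figure D4:**
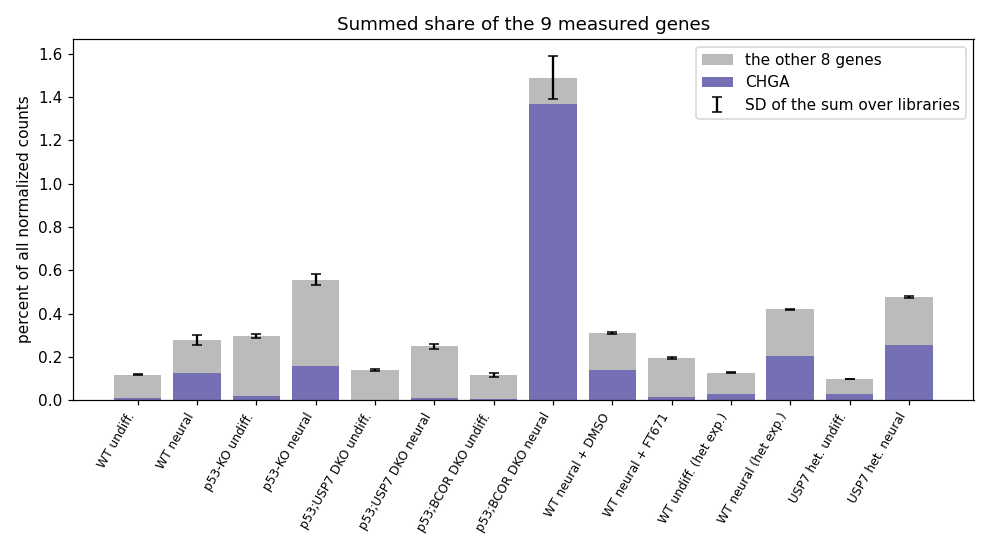
Mean percent of all normalized counts in each group, split into CHGA and the other 8 measured genes, with SD of the sum over the libraries of a group. The p53_BCOR_DKO neural group stands at 1.49% and the next, p53-KO neural, at 0.557%.

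Across the 10 group means of the first experiment, CHGB, SCG3 and PCSK2 varied much alike, with a Pearson r on log2 means of 0.87 for CHGB and SCG3, 0.88 for SCG3 and PCSK2 and 0.77 for CHGB and PCSK2. PCSK1N had an r of 0.85 with PCSK2, 0.72 with CHGB and 0.62 with SCG3. CHGA had an r of 0.45 with CHGB and 0.35 with SCG3, and SCG2 one of -0.61 with PCSK2. Among 11604 genes compared, those most like CHGA were PRDM4 (0.966) and ODC1 (0.959). For CHGB they were BICDL1 (0.978) and ERC2 (0.974), for SCG3 SCN3B (0.982) and PTPRN (0.981), for SCG2 POPDC3 (0.958) and PRTFDC1 (0.935) and for PCSK2 NOS1 (0.983) and PSD2 (0.972). For SCG5 they were SC5D (0.936) and JKAMP (0.935), for PCSK1N AC022211.2 (0.983) and ATP6V0A1 (0.973) and for CPE SPAG1 (0.965) and KIAA1522 (0.960). VGF had the weakest best matches of the 9, EIF2AK2 (0.809) and PREB (0.805). These are descriptions over 10 points that share genotypes and states. For PCSK2 they span groups where it is high and groups at or near 0 reads, where the added 1 sets the value.

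Other genes of the regulated secretory pathway were counted by list, against a median log2 change over all genes within 0.05 of 0 in each comparison. The share of all genes called, beside which these counts stand, was 65.7% in WT differentiation, 63.7% and 57.3% with USP7 loss in neural and undifferentiated cells, 62.3% and 69.4% with BCOR loss, and 65.1% with FT671. Of 28 measured genes of granule formation, membrane and release, 17 rose, 6 fell and 5 were not called (median log2 0.63) in WT differentiation. With USP7 loss in neural cells 7 rose, 18 fell and 3 were not called (median log2 -0.47), and with BCOR loss in neural cells 5 rose, 18 fell and 5 were not called (median log2 -0.90). In undifferentiated cells 9 rose, 11 fell and 8 were not called (median log2 -0.09) with USP7 loss, and 11 rose, 11 fell and 6 were not called (median log2 -0.07) with BCOR loss. PTPRN and PTPRN2, phosphatase-like proteins of the granule membrane, stood at 3099.6 ± 166.3 and 2829 ± 112.9 in p53-KO neural cells, at 210.0 ± 13.1 and 181.7 ± 7.43 in p53_USP7_DKO and at 120.6 ± 8.11 and 107.1 ± 9.46 in p53_BCOR_DKO neural cells (SD, n = 3). With FT671 12 rose, 8 fell and 8 were not called (median log2 0.10). There SLC18A2, the vesicular monoamine transporter, rose from 201.0 ± 28.9 to 1777 ± 55.6 and SYT11, a synaptotagmin, fell from 13581 ± 617.7 to 4823 ± 99.2 (SD, n = 3).

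Of 10 other convertases and finishing enzymes measured, 1 rose, 7 fell and 2 were not called (median log2 -0.42) in WT differentiation. With USP7 loss in neural cells 7 rose, 1 fell and 2 were not called (median log2 0.41), with BCOR loss in neural cells 7 rose, 2 fell and 1 was not called (median log2 0.41), and with FT671 8 rose, none fell and 2 were not called (median log2 0.90). In undifferentiated cells 5 rose, 1 fell and 4 were not called (median log2 0.15) with USP7 loss, and 8 rose, 1 fell and 1 was not called (median log2 0.49) with BCOR loss. The called genes numbered 8, 8, 9 and 8 of 10 in WT differentiation, neural USP7 loss, neural BCOR loss and FT671, where 65.7%, 63.7%, 62.3% and 65.1% of all genes were called. PAM, which amidates peptide ends, fell from 5334 ± 131.3 to 1725 ± 29.7 in WT differentiation, and rose from 2537 ± 101.0 to 6573 ± 64.9 with USP7 loss in neural cells and from 1714 ± 149.4 to 6063 ± 153.3 with FT671 (SD, n = 3). FURIN, a convertase of the constitutive pathway, changed by log2 -0.98 ± 0.11, adjusted p = 7.1e-09 in WT differentiation and by log2 1.76 ± 0.11, adjusted p = 4.7e-14 with FT671.

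Of 12 peptide precursors measured, 6 rose, 4 fell and 2 were not called (median log2 0.24) in WT differentiation. With USP7 loss in neural cells 5 rose, 6 fell and 1 was not called (median log2 -0.42), with BCOR loss in neural cells 5 rose, 3 fell and 4 were not called (median log2 0.42), and with FT671 5 rose, 4 fell and 3 were not called (median log2 -0.12). In undifferentiated cells 6 rose, 2 fell and 4 were not called (median log2 0.64) with USP7 loss, and 8 rose, 1 fell and 3 were not called (median log2 1.12) with BCOR loss. The called genes numbered 10, 11, 8 and 9 of 12 in WT differentiation, neural USP7 loss, neural BCOR loss and FT671, where 65.7%, 63.7%, 62.3% and 65.1% of all genes were called. GAL, the galanin precursor, rose from 9331 ± 250.9 to 203547 ± 19449 with BCOR loss in neural cells (SD, n = 3; log2 4.44 ± 0.10, adjusted p = 7.2e-24). NPY, the neuropeptide Y precursor, changed by log2 -2.60 ± 0.18 in WT differentiation, and in neural cells by log2 -1.76 ± 0.18 with USP7 loss and log2 -2.99 ± 0.18 with BCOR loss. CALCB, a precursor of calcitonin gene-related peptide, rose from 61.6 ± 6.75 to 1623 ± 38.7 with USP7 loss in neural cells (SD, n = 3).

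Of 7 transcription factors described at granin or convertase genes, 3 rose, 3 fell and 1 was not called (median log2 0.11) in WT differentiation. With USP7 loss in neural cells 3 rose, 4 fell and none was uncalled (median log2 -0.38), with BCOR loss in neural cells 5 rose, 2 fell and none was uncalled (median log2 0.57), and with FT671 1 rose, 5 fell and 1 was not called (median log2 -0.61). In undifferentiated cells 4 rose, 2 fell and 1 was not called (median log2 0.20) with USP7 loss, and 4 rose, 2 fell and 1 was not called (median log2 0.47) with BCOR loss. The called genes numbered 6, 7, 7 and 6 of 7 in WT differentiation, neural USP7 loss, neural BCOR loss and FT671, where 65.7%, 63.7%, 62.3% and 65.1% of all genes were called. REST fell from 1431 ± 45.8 to 842.0 ± 47.8 in WT differentiation, and stood at 883.4 ± 22.4 in p53-KO, 1409.6 ± 3.93 in p53_USP7_DKO and 1688 ± 52.016 in p53_BCOR_DKO neural cells (SD, n = 3). With USP7 and BCOR loss in undifferentiated cells it rose (log2 0.20 ± 0.05 and 0.47 ± 0.05), where SCG3 fell. REST was not called with FT671 (log2 -0.07 ± 0.05, adjusted p = 0.27), where SCG3 changed by log2 -0.92 ± 0.10. Nor was it with p53 loss in undifferentiated cells (log2 0.05 ± 0.05, adjusted p = 0.579), where SCG3 changed by log2 1.89 ± 0.10. With heterozygosity REST was called in neither state, where SCG3 was lower in both. The part of REST in the SCG3 result was not tested. INSM1, a zinc finger factor of neuroendocrine cells, had 1 read in the WT undifferentiated libraries together and 462.8 ± 44.5 normalized counts in the neural ones. In neural cells it stood at 440.5 ± 17.043 in p53-KO, 181.0 ± 28.6 in p53_USP7_DKO and 2907 ± 207.3 in p53_BCOR_DKO, and with FT671 at 138.1 ± 2.33 against 489.1 ± 51.2 with vehicle (SD, n = 3). In the heterozygote experiment it stood at 552 and 483 in heterozygous and 144 and 147 in WT neural libraries (log2 1.82 ± 0.33, adjusted p = 2.5e-04). In undifferentiated cells INSM1 stood at 0.336 ± 0.582 in p53-KO, 4.61 ± 3.37 in p53_USP7_DKO and 15.7 ± 7.55 in p53_BCOR_DKO (SD, n = 3). It was higher there with USP7 and BCOR loss (log2 1.92 ± 0.37 and 3.63 ± 0.37), where CHGA fell (log2 -4.37 ± 0.14 and -1.90 ± 0.14). With p53 loss INSM1 was called in neither state (log2 0.00 ± 0.37 undifferentiated, -0.07 ± 0.37 neural). Its part in the granin results was not tested. CREB1, which binds the cyclic AMP response element, changed by log2 -0.64 ± 0.06, adjusted p = 4.9e-10 with FT671.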

How the data were processed

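Reads of 38 libraries went through STAR (build hg19) and HTSeq, per the submitters' processing notes. Each deposited signal value equals reads over a size factor, with 1 added: less that 1, every value gave whole reads (tolerance 0.01). The values themselves show this, not the labels. From the knockout experiment, 6 columns that matched none of the samples were left out. Columns of the heterozygote table identify a group, not a sample.

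Normalized counts were tested as log2(count + 1) with limma 3.58.1 (trend, robust; R 4.3.3), with 1 model for each experiment, after removing genes with an experiment mean below 5. This left 15351 and 14820 genes, over which p-values were Benjamini-Hochberg adjusted and called at 0.05. The added 1 shrinks changes of low genes. The script was checked on simulated data. Count models had been planned for the case of deposited counts and were not run.

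Members, lists and comparisons were chosen with earlier results of these data known. All measured members are named. List genes named are among the 4 with the smallest adjusted p in a comparison, and INSM1 and REST in further groups were added after their values were seen. The most similar genes have the highest Pearson r over group means (minimum mean level 100). Same-numbered libraries deviated together (correlation above 0.1) in 8 of 42 pairs, and in every pair only for USP7 loss, undifferentiated, where the replicate block changed no call of a member.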

Additional observations from a re-analysis of the deposited data

Results flagged for a closer look

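The response to differentiation differed between genotypes, by the interaction test at an adjusted p below 0.05, for several of the 8 genes other than PCSK2. Interactions are differences of log2 changes. With p53 loss they were -0.39 for CHGB, -1.43 for SCG2, -1.95 for SCG3, 0.52 for VGF, 0.67 for PCSK1N and -0.82 for SCG5. With USP7 loss on the p53 knockout they were -0.42 for CHGB, 0.53 for SCG2, -0.85 for SCG3, 1.75 for VGF, -0.67 for PCSK1N and -1.02 for SCG5. With BCOR loss they were 5.18 for CHGA, 2.19 for CHGB, 3.11 for SCG2, 0.48 for SCG3, -1.22 for PCSK1N and -1.13 for CPE. With USP7 heterozygosity they were 0.49 for CHGA, -0.50 for SCG2, 0.99 for VGF and -0.29 for PCSK1N. In the same order 18.1%, 42.1%, 63.8% and 16.2% of all genes tested were called. The calls of CHGB with p53 loss and of PCSK1N with heterozygosity were lost when single libraries were left out, as given above. limma also gave PCSK2 interactions of -3.88 with USP7 loss, -4.21 with BCOR loss and -3.86 with heterozygosity. They are no test of a difference in response, since PCSK2 passed the filter through the groups where it is high and the others hold 0 to 10 reads over their libraries together. The value with BCOR loss is the p53-KO change alone, as both p53_BCOR_DKO groups are at 0 reads, and all 3 depend on the added 1. SCG2 changed by log2 -0.33 in WT differentiation of the first experiment and by log2 1.48 in that of the second, with no overlap of the states in either. That difference was not tested.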

How the results depend on the processing

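The results were the log2 changes of 9 genes in 22 comparisons, 198 in all. They include PCSK2, whose calls are given here only to show how the fit depends on the processing. Adding 0.5 in place of 1, or using no filter on low values, changed no call. With 5 added in place of 1, PCSK2 gained a call with FT671 (adjusted p = 0.00322), and its uncalled interaction with p53 loss turned from -0.39 to 0.617. With TMM rescaling, SCG5 gained a call with FT671 (adjusted p = 0.0429), and the uncalled change of CPE with vehicle turned from 0.000768 to -0.000821. The replicate block changed no call but that of CHGA with p53 loss in neural cells (adjusted p = 0.0548), and it could not be fitted for the heterozygote experiment, whose columns name no sample. Fits of only the groups compared gained 9 calls and lost 3. SCG5 gained calls with p53 loss (adjusted p = 0.00619) and BCOR loss (adjusted p = 9.5e-04) in neural cells. It also did so in p53_BCOR_DKO differentiation (adjusted p = 8.9e-04) and for the BCOR interaction (adjusted p = 0.0465). Other gains were SCG3 with vehicle (adjusted p = 0.00115), CPE in WT differentiation (adjusted p = 0.0457), and PCSK2 (adjusted p = 0.0052), SCG5 and PCSK1N with FT671. Lost were SCG5 in p53_USP7_DKO differentiation (adjusted p = 0.19) and PCSK1N and CPE with USP7 loss in undifferentiated cells (adjusted p = 0.0679 and 0.327). These fits moved the number of all genes called from 8798 to 4831 for USP7 loss and from 10009 to 6519 for USP7 against BCOR loss, both in undifferentiated cells, and from 1336 to 3696 for vehicle.

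With 1 library left out, the interaction with heterozygosity ran from log2 -0.33 to -0.25 for PCSK1N, against -0.29. For PCSK2, where it is no test of a difference in response, it was log2 -3.54 without the second WT neural library. It was log2 -3.36 without the second heterozygous undifferentiated and log2 -3.37 without the first heterozygous neural library, against -3.86. All genes called then numbered 834 for vehicle without the first untreated library and 802 without the third vehicle library. They went from 3768 to 2449 for heterozygosity in undifferentiated cells without the first WT library. Without the first heterozygous neural library they went from 3151 to 1947 in neural cells and from 2400 to 1538 for the interaction. The sign of 11 uncalled results changed in such fits, whose log2 changes ran from -0.024 to 0.222 for PCSK1N (BCOR loss, undifferentiated), -0.0966 to 0.0143 for SCG5 (BCOR loss, undifferentiated), -0.0524 to 0.0467 for CPE (vehicle), -0.0362 to 0.144 for PCSK1N (vehicle), -0.286 to 0.069 for PCSK2 (vehicle), -0.0077 to 0.11 for PCSK1N (USP7 against BCOR loss, neural), -0.23 to 0.0848 for SCG3 (p53_USP7_DKO differentiation), -0.514 to 0.488 for PCSK2 (heterozygous differentiation), -0.0496 to 0.0331 for PCSK1N (heterozygosity, neural), -0.143 to 0.0717 for SCG2 (heterozygosity, undifferentiated) and -0.0108 to 0.114 for PCSK1N (p53 loss, undifferentiated). Where an arm was left with 1 library, that library was assumed to vary like the other groups. The cause of these changes was not tested. The 3 count models on recovered reads and the PCSK1 to PCSK1N ratio were planned and not run.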
